A study of Homo sapiens with 6 samples.

Results

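The genes described here encode the kinase cascade that runs from the RAS GTPases through the RAF kinases and MEK to ERK. They are HRAS and NRAS (RAS GTPases), ARAF and BRAF (RAF kinases), MAP2K1 and MAP2K2 (MEK1 and MEK2) and MAPK3 (ERK1). They were taken by symbol from the deposited gene count table, where all 7 were present among 16362 genes, and all 7 passed the filter on low counts that left 9848 tested genes. Expression was compared between MDA-MB-231 cells given CTI-2 for 24 h (3 libraries) and MDA-MB-231 cells given no agent (3 control libraries). MDA-MB-231 is a human triple-negative breast cancer line, in which the RAS to ERK route is commonly described as constitutively active, and the series title refers to MAPK signalling. For the compound CTI-2 only this code name was at hand. No source used here gives its dose, a vehicle for the controls or separate cultures behind the libraries, so p-values measure the spread between these libraries, which may be technical.

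RAS proteins are membrane-anchored switches that are active when bound to GTP. Active RAS recruits RAF kinases to the membrane, RAF phosphorylates MEK on a pair of serines, and MEK phosphorylates ERK on a threonine and a tyrosine. ERK then phosphorylates cytoplasmic kinases and transcription factors, and induces its own inhibitors. The cascade is regulated mainly through protein phosphorylation and localisation, which a count of transcripts does not measure.

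The coding stretches below are shown because they carry the steps that link the members: the lipid anchor of each RAS protein and the residues of ERK1 that MEK phosphorylates. They are read from GENCODE 29 transcripts, 5′ to 3′ on the coding strand. In HRAS and NRAS the stretch runs from codon 170 to the stop codon and the capitals mark the last 4 codons before the stop, the CAAX box that is prenylated at its cysteine. In MAPK3 (codons 197 to 209) the capitals mark the threonine and tyrosine codons.
HRAS: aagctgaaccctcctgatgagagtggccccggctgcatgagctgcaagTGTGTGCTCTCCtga
NRAS: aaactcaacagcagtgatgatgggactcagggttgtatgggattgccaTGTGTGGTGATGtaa
MAPK3: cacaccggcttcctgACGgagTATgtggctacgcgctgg

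Over their whole coding sequences HRAS and NRAS were identical at 73.6% of 569 aligned bases, ARAF and BRAF at 68.3% of 1797 and MAP2K1 and MAP2K2 at 75.4% of 1176. The annotated pseudogenes named after ARAF, BRAF or MAP2K1 had no row in the count table.

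Depth and the labelled line were checked first. Library totals were 2208261 to 3153469 reads with CTI-2 and 2349758 to 3929532 in controls, and the members together took 394 to 523 reads per library with CTI-2 and 402 to 647 in controls, so their values carry sizeable counting error. Expression is given as CPM, the reads of a gene per 1000000 reads of the library. All 8 markers chosen for the line were listed, with summed levels of 2256 to 2304 CPM with CTI-2 and 1924 to 2097 CPM in controls. These sums did not overlap, and their part in the results was not tested. The highest of these markers were LGALS1, at 1055 to 1249 CPM over the 6 libraries, and ANXA1, at 424 to 593 CPM. The lowest was AXL, at 2.98 to 7.41 CPM. VIM, the vimentin gene that is commonly described as abundant in this line, was at 14.5 to 18.9 CPM over the 6 libraries. The luminal markers ESR1, GATA3 and TFF1 and the junction gene CDH1 had at most 2 reads in any library; 5 of 6 luminal markers were listed, with summed levels of 6.79 to 10.8 CPM with CTI-2 and 8.09 to 9.67 CPM in controls. Of the luminal markers, AGR2 was at 4.26 to 6.40 CPM and KRT19 at 0.906 to 4.07 CPM. EPCAM was at 6.98 to 10.6 CPM. The fibroblast markers COL3A1, DCN and LUM had at most 6 reads in any library, while COL1A1 was at 52.2 to 87.4 CPM. PTPRC and CD3E, the leukocyte markers, were not listed.

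After CTI-2 none of the 7 cascade genes was called, which here means an edgeR quasi-likelihood p under 0.05 after adjustment over all tested genes. Of all tested genes 8.03% were called, 3.39% as higher and 4.64% as lower. The highest fold changes were those of ARAF (1.26-fold) and HRAS (1.13-fold), and the lowest were those of MAP2K1 (0.671-fold) and BRAF (0.719-fold). At an unadjusted p under 0.05 there was 1 member, ARAF, against 23.9% over the whole table. With DESeq2 and with limma-voom the number of called members was 0 as well. The members' median log2 fold change was -0.04 and that of all tested genes was -0.01, with 2 members positive and 5 negative, where 48.7% of all tested genes were positive. Summed over the 7 genes the level was 165.8, 174.9 and 178.4 CPM in CTI-2 libraries 1 to 3, against 173.3, 164.7 and 171.1 CPM in controls 1 to 3. The sums of the 2 groups overlapped, with means of 173 ± 6.49 CPM with CTI-2 and 170 ± 4.51 CPM in controls (SD, n = 3 each). The difference of these means was 3.38 CPM, and 9.75 CPM with CPM taken over TMM-scaled library sizes.

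**Figure D1:**
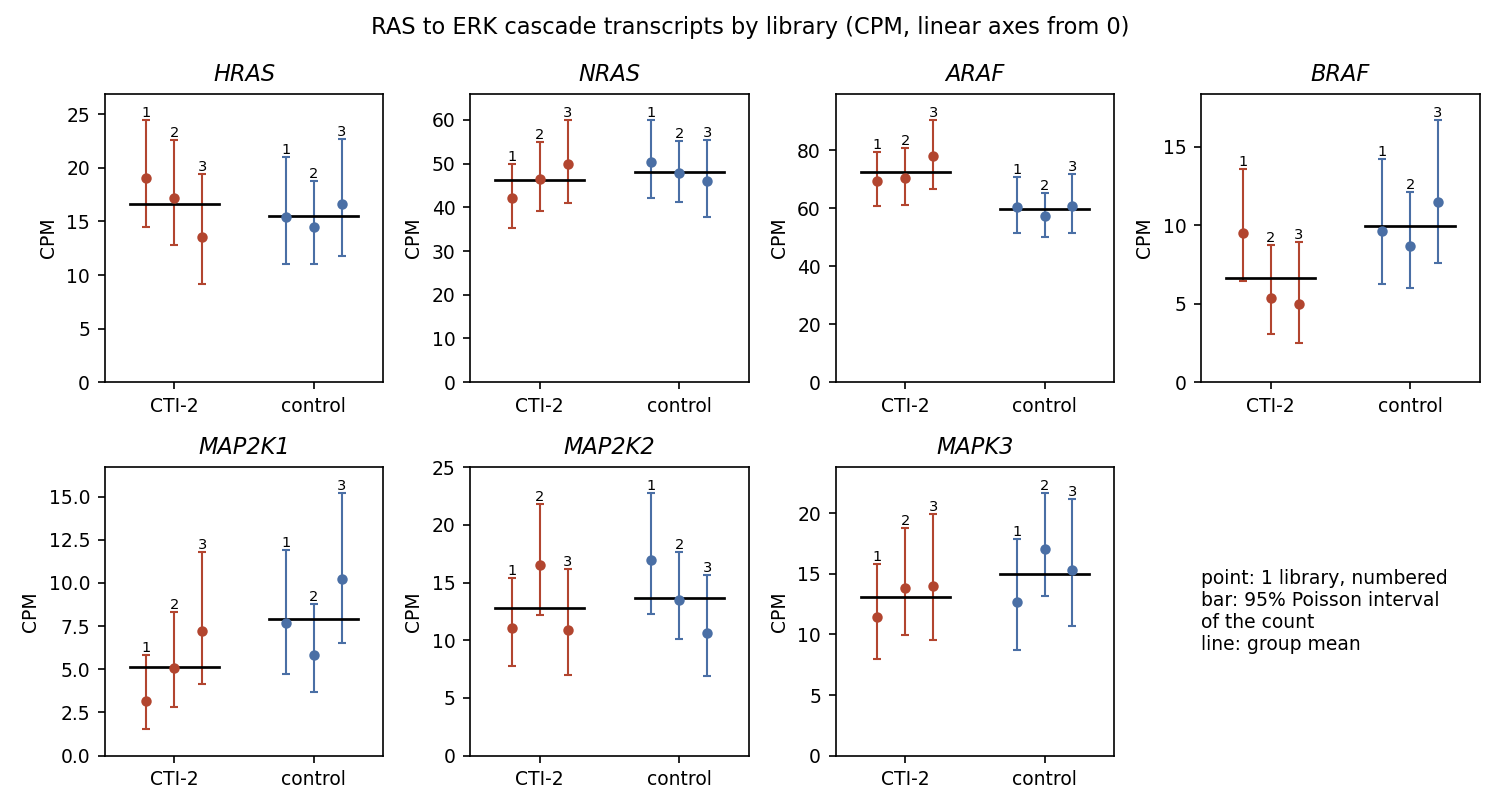
Expression of the 7 cascade genes in CPM (vertical axes, linear from 0) in CTI-2 libraries (left in each panel, red) and control libraries (right, blue), with each library as a numbered point, its 95% Poisson interval as a bar and the group mean as a black line. ARAF is the member whose 2 groups do not overlap, with 69.4 to 77.9 CPM with CTI-2 and 57.3 to 60.9 CPM in controls. Of all tested genes 28.8% had groups that did not overlap.

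RAS genes come first in the cascade. HRAS (chromosome 11), whose protein carries a palmitate-accepting region before its CAAX box, was at 19.03, 17.2 and 13.6 CPM in CTI-2 libraries 1 to 3, against 15.4, 14.5 and 16.6 CPM in controls 1 to 3. The CTI-2 values spread over the whole range of the controls and beyond it on both sides. Its log2 fold change was 0.17 (SE 0.20, 95% interval -0.24 to 0.58, adjusted p = 0.657). It was 0.057 without CTI-2 library 1 and 0.28 without CTI-2 library 3. NRAS (chromosome 1, 114704469 to 114716894, minus strand, GENCODE 29 on GRCh38) was at 42.2, 46.5 and 49.8 CPM with CTI-2, against 50.5, 47.8 and 45.96 CPM in controls. These groups also overlapped, and NRAS had the log2 fold change nearest to 0 among the members (-0.02, SE 0.14, adjusted p = 0.953). Its interval, -0.30 to 0.26, limits a difference to between 0.813-fold and 1.20-fold.

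HRAS made up 31.1, 27.0 and 21.4% of the reads of the RAS pair in CTI-2 libraries 1 to 3, against 23.4, 23.3 and 26.5% in controls 1 to 3. The means were 26.5% ± 4.85 with CTI-2 and 24.4% ± 1.85 in controls (SD, n = 3 each; two-sided exact permutation p = 0.6). In every library NRAS thus outnumbered HRAS in reads, and the balance between them overlapped between groups. Each share rests on 140 to 245 reads, and the widest 95% exact binomial interval, that of control 3, ran from 19.6 to 34.4%.

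Among the 7 members 1, the RAF gene ARAF, had groups that did not overlap, against 28.8% of all tested genes. ARAF (chromosome X, 47561100 to 47571920, plus strand) encodes the RAF kinase with the lowest basal activity toward MEK. It was at 69.4, 70.4 and 77.9 CPM in CTI-2 libraries 1 to 3, against 60.5, 57.3 and 60.9 CPM in controls 1 to 3. All CTI-2 values lay above all control values, as they lay wholly to one side for 28.8% of all tested genes. The log2 fold change was 0.33 (SE 0.12, 95% interval 0.08 to 0.58), with an unadjusted p of 0.011 and an adjusted p of 0.0903 in edgeR. With 1125 reads over the 6 libraries ARAF was the most deeply counted member, and the SD within each group (4.61 CPM with CTI-2, 1.98 CPM in controls) was under that expected from counting alone (5.16 and 4.58 CPM). ARAF was called in 1 alternative: with each library's trend of expression with transcript GC content removed, the log2 fold change came to 0.39 and the adjusted p to 0.0447, against 0.31 and 0.109 over the same genes without that step. Across all 17 alternatives its adjusted p was 0.0447 to 0.303 and its log2 fold change 0.28 to 0.39.

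BRAF (chromosome 7, 140719327 to 140924928, minus strand) encodes the RAF kinase with the strongest activity toward MEK. It was at 9.51, 5.39 and 4.98 CPM in CTI-2 libraries 1 to 3, against 9.63, 8.65 and 11.5 CPM in controls 1 to 3. CTI-2 library 1 sat within the control range, and libraries 2 and 3 sat below it. The log2 fold change was -0.48 (SE 0.28, 95% interval -1.05 to 0.09, adjusted p = 0.305). BRAF had 57 reads with CTI-2 and 86 reads in controls, and its log2 fold change was -0.86 without CTI-2 library 1 (adjusted p = 0.133), -0.32 without library 2 (adjusted p = 0.62) and -0.34 without library 3 (adjusted p = 0.605). The annotated span of BRAF overlaps that of NDUFB2, a respiratory complex I subunit gene on the opposite strand, by 3464 bases. NDUFB2 had 431 to 846 reads per library and a log2 fold change of 0.19 (adjusted p = 0.298). No source used here says if reads were counted by strand, so reads of the overlap cannot be told apart and the BRAF values are uncertain.

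ARAF made up 87.95, 92.9 and 94.0% of the reads of this RAF pair in CTI-2 libraries 1 to 3, against 86.3, 86.9 and 84.1% in controls 1 to 3. The means were 91.6% ± 3.22 with CTI-2 and 85.8% ± 1.45 in controls (SD, n = 3 each), a difference of 5.86 percentage points. The groups did not overlap, and the two-sided exact permutation p was 0.1, the smallest that 3 against 3 libraries can give, or 0.3 after Benjamini-Hochberg adjustment over the 3 family shares tested. CTI-2 library 1 lay 1.08 points above the highest control, and its 95% exact binomial interval, 83.2 to 91.7%, contains all control values. Leaving out 1 library at a time gave differences of 4.67 to 7.69 points. The share restates the ARAF and BRAF counts above, with 11 to 34 BRAF reads per library. It is uncertain in the same way as the BRAF values, through the overlap with NDUFB2.

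**Figure D2:**
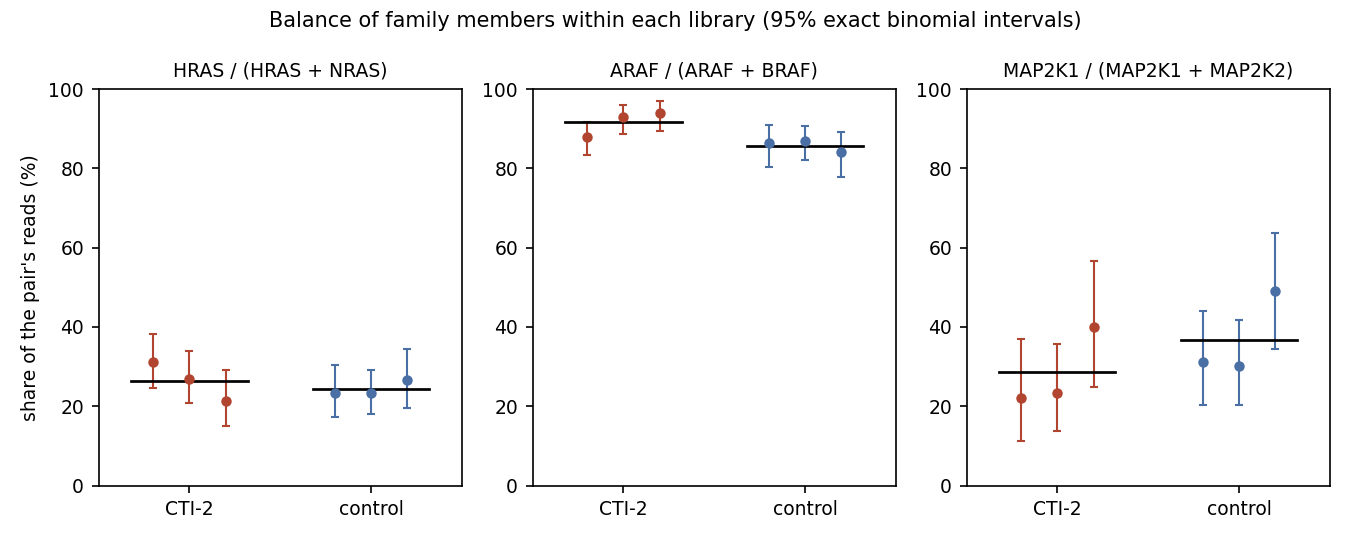
Share of the first gene of each pair in the pair's reads (vertical axes, % from 0 to 100) in CTI-2 libraries (left, red) and control libraries (right, blue), with 95% exact binomial intervals and group means as black lines. The ARAF share is the one whose groups do not overlap, with 87.95 to 94.0% with CTI-2 and 84.1 to 86.9% in controls. The BRAF reads within it are uncertain, since BRAF overlaps NDUFB2.

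MEK genes differed in depth, with 108 reads for MAP2K1, the fewest of any member, and 230 for MAP2K2. MAP2K1 (chromosome 15, 66386817 to 66492312, plus strand), which encodes MEK1, was at 3.17, 5.06 and 7.25 CPM in CTI-2 libraries 1 to 3, against 7.70, 5.85 and 10.2 CPM in controls 1 to 3. CTI-2 library 3 exceeded control 2, so the groups overlapped. The log2 fold change was -0.58 (SE 0.33, 95% interval -1.24 to 0.09, adjusted p = 0.285). It was -0.30 without CTI-2 library 1 (adjusted p = 0.679) and -0.85 without CTI-2 library 3 (adjusted p = 0.195). It rests on 41 reads with CTI-2 and 67 reads in controls. The interval runs from 0.424-fold to 1.06-fold, so both no difference and a level of less than 0.5-fold lie within it. MAP2K1 overlaps SNAPC5 on the opposite strand by 2178 bases, and SNAPC5, a small nuclear RNA transcription factor subunit gene, had 44 to 117 reads per library and a log2 fold change of 0.35 (adjusted p = 0.242). Without known strand use, the MAP2K1 values are uncertain in the same way.

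MAP2K2 (chromosome 19, 4090321 to 4124129, minus strand), which encodes MEK2, was at 11.1, 16.5 and 10.9 CPM in CTI-2 libraries 1 to 3, against 16.9, 13.5 and 10.6 CPM in controls 1 to 3. The 2 groups covered nearly the same range (log2 fold change -0.04, SE 0.23, adjusted p = 0.937). MAP2K1 made up 22.2, 23.4 and 40.0% of the MEK reads with CTI-2, against 31.2, 30.3 and 49.0% in controls. The means were 28.6% ± 9.93 with CTI-2 and 36.8% ± 10.5 in controls (SD, n = 3 each; two-sided exact permutation p = 0.5), on 40 to 76 reads per library. MAP2K2 reads outnumbered those of MAP2K1 in all 6 libraries.

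MAPK3 (chromosome 16, 30114105 to 30123506, minus strand) encodes ERK1, the last kinase of the cascade. It was at 11.4, 13.8 and 14.04 CPM in CTI-2 libraries 1 to 3, against 12.7, 17.1 and 15.3 CPM in controls 1 to 3. CTI-2 libraries 2 and 3 lay inside the control range and library 1 lay below it. The log2 fold change was -0.18 (SE 0.22, 95% interval -0.63 to 0.26, adjusted p = 0.658). Without control 2, the highest library, the log2 fold change was -0.002 (adjusted p = 0.997), and without control 1 it was -0.30 (adjusted p = 0.523).

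**Figure D3:**
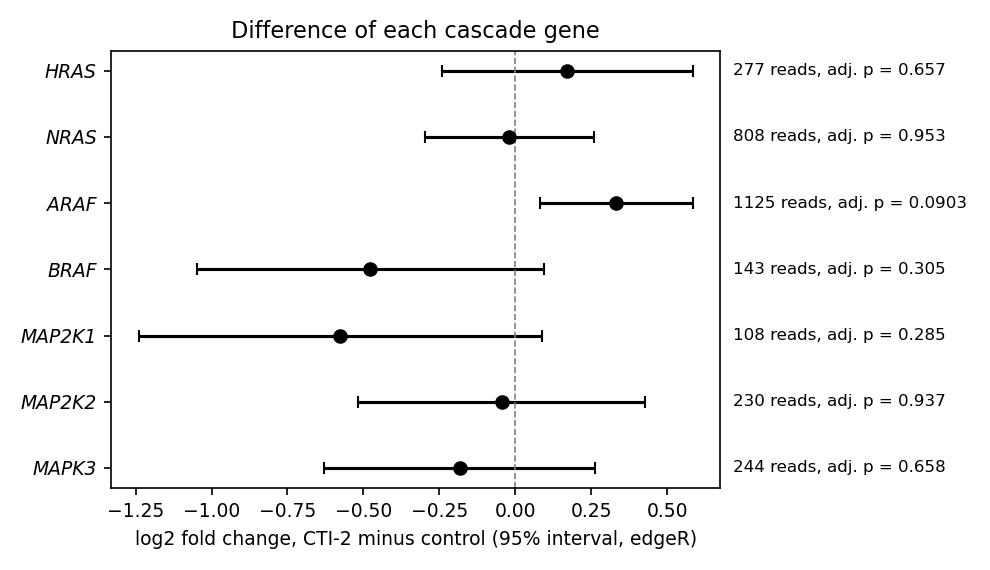
Log2 fold change of each cascade gene (horizontal axis, CTI-2 minus control, edgeR) with its 95% interval as a bar, and the gene's reads over the 6 libraries with its adjusted p at the right. The interval of ARAF, 0.08 to 0.58, is the one that leaves out 0, and those of MAP2K1 and BRAF are the widest.

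Precision differed among the members with their read numbers. The SE of the log2 fold change was 0.12 for ARAF and 0.14 for NRAS, the members with the most reads, and 0.28 for BRAF and 0.33 for MAP2K1, those with the fewest. Within groups the coefficient of variation of the CPM was 6.36% with CTI-2 and 3.32% in controls for ARAF, against 39.5% with CTI-2 and 27.6% in controls for MAP2K1. For BRAF the SD among CTI-2 libraries was 2.51 CPM, where counting alone would give 1.59 CPM, and for MAP2K1 it was 2.04 CPM, where counting would give 1.35 CPM. In controls the SD was 1.44 CPM for BRAF (counting 1.85 CPM) and 2.19 CPM for MAP2K1 (counting 1.64 CPM). MAP2K2, with more reads, exceeded counting in both groups: 3.20 against 2.19 CPM with CTI-2, and 3.16 against 2.21 CPM in controls.

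ARAF was above NRAS, and NRAS above HRAS, in all 6 libraries. By CPM over the 6 libraries the order was ARAF (mean 66.1), NRAS (47.1), HRAS (16.1), MAPK3 (14.1), MAP2K2 (13.3), BRAF (8.28) and MAP2K1 (6.54). The ranges of ARAF and NRAS did not overlap, nor did those of NRAS and HRAS, while each later neighbour overlapped the one before it. ARAF lay above 74.9% of the tested genes by mean CPM and MAP2K1 above 16.3%. CPM is not divided by length, and whether reads of these Oxford Nanopore libraries grow in number with transcript length was not tested. Divided by the length in kb of each gene's representative GENCODE 29 transcript, the levels were 26.4 CPM per kb for ARAF, 13.9 for HRAS, 10.6 for NRAS, 7.65 for MAP2K2, 7.55 for MAPK3, 3.25 for BRAF and 1.92 for MAP2K1. On the scale per kb alone HRAS, with a transcript of 1151 bases, passed NRAS, with 4449 bases. ARAF stayed highest and MAP2K1 lowest on both scales.

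GC content is a property that the members share unevenly, and the median fold change over the table differed with it mainly at the highest GC content. The 9218 tested genes with an annotated transcript were split by its GC content into 5 equal classes. In the highest class (58.3% or more) the median log2 fold change was -0.11, against 0.03 in the lowest (up to 41.3%). In classes 2, 3 and 4 between them it was 0.05, 0.03 and -0.005. HRAS (65.2%), MAP2K2 (65.5%), MAPK3 (61.8%) and ARAF (58.9%) lie in the highest class and NRAS (38.4%) in the lowest. With the GC trend removed the log2 fold changes were 0.34 for HRAS, 0.13 for MAP2K2 and -0.07 for MAPK3, against 0.15, -0.06 and -0.20 over the same genes without that step, and their adjusted p values were 0.321, 0.79 and 0.894. For NRAS, BRAF and MAP2K1 they were -0.05, -0.51 and -0.60 with the trend removed, against -0.04, -0.49 and -0.59 over the same genes without that step.

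Other genes of the pathway were described from 8 lists of 99 genes, of which 96 were in the table and 71 were tested. Of these 2 were higher and 2 lower, or 5.63%, against 8.03% of all tested genes, and the median log2 fold change was 0.02. Around RAS itself, 1 of 5 tested RAS relatives was higher and 0 were lower, and all 5 had a positive log2 fold change (median 0.37), as 48.7% of all tested genes did. RAP1B, a RAS-like GTPase best known for control of cell adhesion, was at 99.9, 99.8 and 117 CPM in CTI-2 libraries 1 to 3, against 91.3, 85.0 and 74.9 CPM in controls 1 to 3. The groups did not overlap (log2 fold change 0.37, SE 0.12, adjusted p = 0.048). RAP1B has 3 annotated pseudogenes, and it was called in 4 of 17 alternatives (adjusted p 0.0204 to 0.251); it was not called by DESeq2, nor when any 1 library but control 2 was left out.

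Adaptors and exchange factors connect receptors to RAS. Of 6 tested genes 0 were higher and 1 was lower (median -0.18). PTPN11 encodes the phosphatase SHP2, which is needed for full RAS activation by receptor tyrosine kinases. It was at 76.4, 105 and 89.7 CPM in CTI-2 libraries 1 to 3, against 161, 132 and 137 CPM in controls 1 to 3. PTPN11 fell by 0.62 on the log2 scale (SE 0.12, adjusted p = 0.00121), and all CTI-2 values lay below all control values. Its call held in 17 of 17 alternatives, with an adjusted p of 0.000119 to 0.0246. In GENCODE 29 its span overlaps that of the ribosomal protein gene RPL6, which was at 3912 to 3934 CPM with CTI-2 and 3571 to 4273 CPM in controls, so the PTPN11 counts are uncertain if the counting split reads between them.

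Negative regulators of RAS and the enzymes that process its lipid anchor held no calls in the main analysis. Of 8 tested RAS-GAPs and inhibitors 0 passed (median 0.06), and 1 had an unadjusted p under 0.05. Without control 2 this list gave 2 calls, and 0 in the other 16 alternatives. PEBP1, which encodes a RAF-binding inhibitor, was at 762 ± 34.6 CPM with CTI-2 and 648 ± 62.2 CPM in controls (SD, n = 3 each; log2 fold change 0.28, edgeR adjusted p = 0.124). For LZTR1, which encodes a subunit of a ubiquitin ligase for RAS proteins, the log2 fold change was -0.24 (adjusted p = 0.306). Of 10 tested genes of RAS lipid processing and trafficking 0 passed (median -0.03), and 2 had an unadjusted p under 0.05. This list held calls in 6 of 17 alternatives, with 3 calls without control 2 and 1 call in each of the others. Its lowest log2 fold change was that of ABHD17A (-2.51, edgeR adjusted p = 0.0747), on as few as 1 read in a library. GOLGA7, a subunit gene of the RAS palmitoyltransferase, was at 63.6 ± 2.20 CPM with CTI-2 and 52.3 ± 5.89 CPM in controls (log2 fold change 0.31, edgeR adjusted p = 0.138). For LYPLA1, a depalmitoylating enzyme gene, the log2 fold change was 0.15 (adjusted p = 0.538).

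Scaffolds, chaperones and binding partners of RAF had 0 higher and 1 lower gene among 20 tested (median -0.04), with 8 at an unadjusted p under 0.05. The number of calls in this list changed in 15 of 17 alternatives, with 3 in DESeq2, 4 in limma-voom and 5 in limma on log2(CPM + 1). It was 0 without CTI-2 library 1 or 2. YWHAG (-0.35, edgeR adjusted p = 0.0501) and YWHAZ (0.33, adjusted p = 0.0521) came near the threshold in opposite directions. Over all 8 lists 17 of 71 tested genes, or 23.9%, had an unadjusted p under 0.05, the share found over the whole table. SFN encodes stratifin, an adaptor that binds phosphorylated proteins and is induced by p53. It was at 171, 168 and 155 CPM in CTI-2 libraries 1 to 3, against 215, 233 and 222 CPM in controls 1 to 3, with no overlap. SFN fell by 0.39 on the log2 scale (SE 0.11, adjusted p = 0.0206). It missed the threshold with the GC trend removed (-0.25, adjusted p = 0.158) and when any 1 CTI-2 library was left out (highest adjusted p 0.146).

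Downstream of ERK, 0 of 9 tested ERK-activated kinase and ETS substrate genes passed, and 0 had an unadjusted p under 0.05 (median -0.09). RPS6KA1, which encodes the ERK-activated kinase RSK1, was at 86.3 ± 8.26 CPM with CTI-2 and 98.5 ± 15.4 CPM in controls (SD, n = 3 each; log2 fold change -0.12, edgeR adjusted p = 0.567). For MKNK2, which encodes an ERK-activated kinase of translation factor eIF4E, it was -0.07 (adjusted p = 0.814). Among 7 other tested kinases that feed MEK or belong to the ERK5 and atypical ERK branches 0 passed and 0 had an unadjusted p under 0.05 (median 0.20). The log2 fold change was 0.30 for the ERK3 gene MAPK6 (adjusted p = 0.318) and -0.06 for the ERK5 gene MAPK7 (adjusted p = 0.93). Both overlap other counted genes.

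Of 14 listed genes of ERK transcriptional output 6 were tested, and 1 was higher and 0 lower (median 0.13). That gene was ETV5, which encodes an ETS transcription factor. It was at 6.34, 4.04 and 4.53 CPM in CTI-2 libraries 1 to 3, against 1.54, 1.53 and 2.13 CPM in controls 1 to 3, with no overlap. ETV5 rose by 1.58 on the log2 scale (SE 0.44, adjusted p = 0.0195) on 4 to 20 reads per library. ETV5 did not pass the filter of at least 20 counts in 3 libraries, and DESeq2 gave it no adjusted p. It was called in 13 of the 15 alternatives that gave one. Its edgeR adjusted p was 0.165 without CTI-2 library 1 and 0.0728 without control 1. The span of ETV5 overlaps that of DGKG, which did not pass the filter on low counts, and a split of reads between them was not tested. With so few reads the ETV5 counts are uncertain. Among the tested output genes that were not called, MYC had 915 to 1324 reads per library and a log2 fold change of 0.11 (edgeR adjusted p = 0.575). The log2 fold change was 0.55 for EPHA2 (adjusted p = 0.0605) and 0.15 for DUSP4 (adjusted p = 0.783). For EGR1 it was -0.02 (adjusted p = 0.966) and for IER3 -0.15 (adjusted p = 0.782). SPRY2, an ERK-induced feedback inhibitor gene, DUSP6, an ERK-induced ERK phosphatase gene, and the RAS inhibitor genes SPRED1 and SPRED2 did not pass the filter on low counts. SPRY2 had at most 4 reads in any library, DUSP6 at most 1, SPRED1 at most 6 and SPRED2 at most 9. These genes were not tested at this depth.

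**Figure D4:**
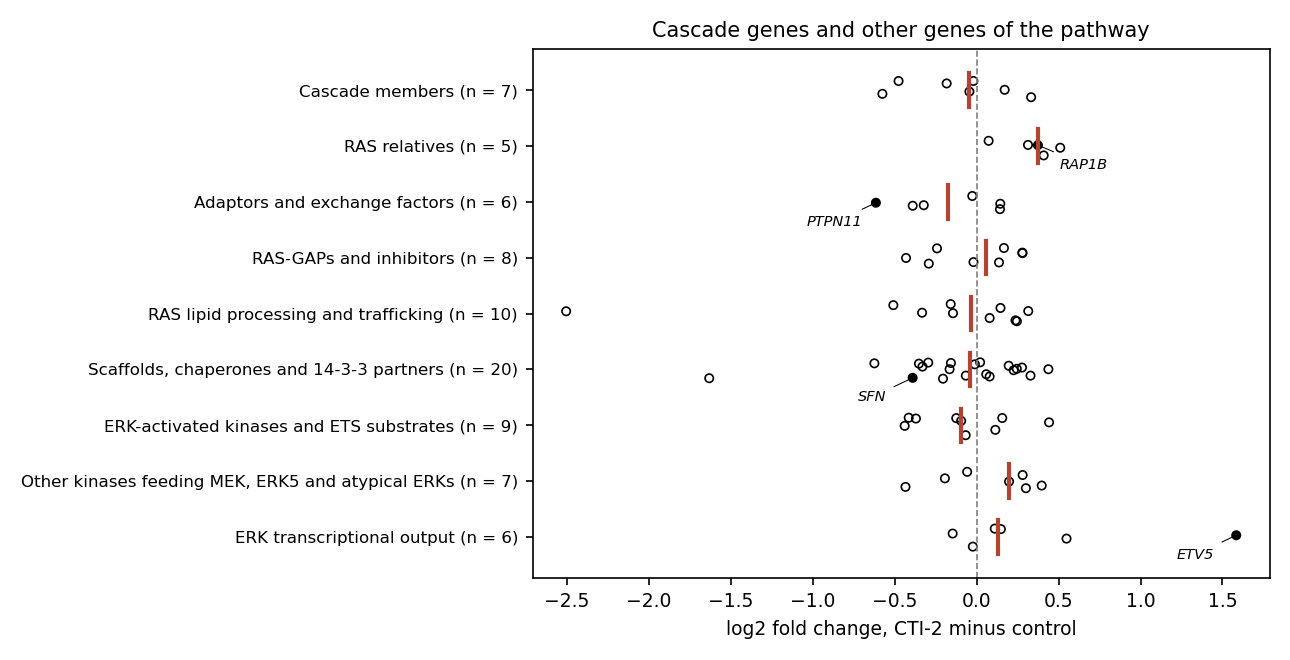
Log2 fold change (horizontal axis, CTI-2 minus control, edgeR) of the 7 cascade genes and of the tested genes of 8 other pathway lists (rows), with filled points for an adjusted p under 0.05 and a red line at each list's median. The named points RAP1B, PTPN11, SFN and ETV5 are the 4 calls, and no cascade gene is filled.

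For each member the gene with the most similar pattern was taken as the one whose centred log2 CPM over the 6 libraries differed least by root mean square, among 8041 genes (8042 for MAP2K1) with a mean of at least 20 counts. These were FBXL12 for HRAS (0.033), DNM1L for NRAS (0.028), MAD2L1 for ARAF (0.027), GOLGA6L9 for BRAF (0.087), UCK1 for MAP2K1 (0.13) and CD320 for MAPK3 (0.043), in log2 units. For MAP2K2 it was a locus under an identifier of the authors' own (0.088). ARAF had 509 genes within 0.1 of its pattern and NRAS 445, against 3 for BRAF and 0 for MAP2K1. The members' own root mean square spread was 0.175 for ARAF and 0.091 for NRAS, against 0.385 for BRAF and 0.441 for MAP2K1. The number of genes within a fixed distance depends on this spread, and shared regulation was not tested. MAD2L1, a spindle checkpoint gene, had nearly the same log2 fold change as ARAF (0.34 and 0.33) and an edgeR adjusted p of 0.0437, on a mean of 171.6 CPM against 66.1 CPM for ARAF. The like fold change follows from the choice of MAD2L1 by its pattern in the same libraries, so it is no separate evidence on ARAF.

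**Figure D5:**
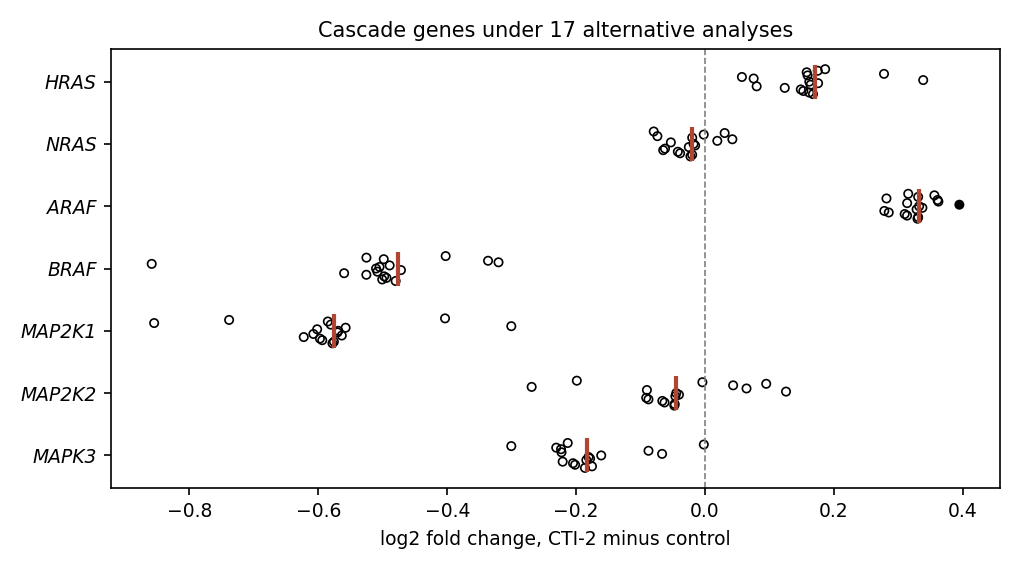
Log2 fold change of each cascade gene (horizontal axis, CTI-2 minus control) in each of 17 alternative analyses (points, filled where the adjusted p is under 0.05) beside the value of the main analysis (red line). ARAF stays between 0.28 and 0.39 with 1 filled point, HRAS stays above 0, BRAF, MAP2K1 and MAPK3 stay below 0, and NRAS and MAP2K2 cross 0.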

How the data were processed

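Total RNA of 3 CTI-2 and 3 control samples was made into Oxford Nanopore cDNA-PCR libraries, per the labels' protocols. Minimap2 was used, per the submitters' processing notes; no source used here gives the counter, genome build, annotation or use of strand. The deposited tables hold whole-number counts of reads per gene and their CPM, in which each value is the count per 1000000 of the library's total. Counts were filtered with filterByExpr (9848 genes kept), scaled with TMM factors and fitted by edgeR 4.0.16 (robust quasi-likelihood, R 4.3.3) with no block, and p-values were adjusted by Benjamini-Hochberg over all tested genes. SEs were derived from the fold change and test statistic, and intervals are 95%. Intervals of counts and shares cover counting error only, since the reads carry no molecular identifiers. Representative transcripts (longest complete coding sequence of the GENCODE 29 basic set) gave length and GC content; coordinates are printed where the GENCODE 29 span equals the deposited gene length (6 of 7 members). All 14408 Ensembl identifiers of the table are in GENCODE 29. The scripts were tested on simulated counts. Alternatives used DESeq2 1.42.0, limma 3.58.1, other scalings and filters, GC or length trends removed, a replicate block and each library left out. Named genes are the members, up to 3 called genes per list (or the 2 of highest CPM where none was called) and each member's nearest pattern. Further genes of the lists were added after their values were seen. The members and lists were chosen with earlier results of these data known. Some genes and sequences of the cascade are not reported here; they were left out whatever their values.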

Additional observations from a re-analysis of the deposited data

How the results depend on the processing

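Alternatives were other scalings, filters and tests, GC or length trends removed, a replicate block, and leaving out each library. The number of called members was 0 in 16 of 17 alternatives and 1, ARAF, with the GC trend removed. The log2 fold change of ARAF was then 0.39 (adjusted p = 0.0447), and its adjusted p over all 17 was 0.0447 to 0.303. The sign of NRAS turned with the length trend removed (0.019), without CTI-2 library 1 (0.043) and without control 2 (0.03), and ran from -0.080 to 0.043 as libraries were left out. That of MAP2K2 turned with the GC trend removed (0.13) and without CTI-2 library 1 (0.06), CTI-2 library 3 (0.04) or control 1 (0.10), and ran from -0.27 to 0.10 as libraries were left out; none passed, and the causes were not tested. HRAS, ARAF, BRAF, MAP2K1 and MAPK3 kept their signs in all 17. All tested genes gave 791 calls, 450 with DESeq2 and 400 to 1610 when a library was left out, the highest without control 2. The other pathway lists gave 4 calls, 7 with limma-voom, 8 with limma on log2(CPM + 1), 8 with the replicate block and 1 to 14 when a library was left out, again highest without control 2. The summed CPM differed by 3.38, by 9.75 over TMM-scaled library sizes and by 0.699 to 6.98 when a library was left out, and those of the shares -0.19 to 4.64 points (HRAS, negative without CTI-2 library 1), 4.67 to 7.69 (ARAF) and -14.0 to -2.20 (MAP2K1) over these. With the replicate block 942 of all tested genes and 0 members were called; same-numbered libraries did not deviate together (correlations over genes -0.049, 0.0069 and -0.12), so the numbers were not taken as pairs. Depth limits MAP2K1 and BRAF most: on 108 and 143 reads their 95% intervals run from 0.424-fold to 1.06-fold and from 0.484-fold to 1.07-fold.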

Other observations

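Of the 71 tested genes of the other pathway lists, 23 (32.4%) had groups that did not overlap, against 28.8% of all tested genes, and 19 of these were not called. The 3 described next were chosen from those after their values were seen. RALA, a RAS-like GTPase gene, was at 106, 99.4 and 111 CPM in CTI-2 libraries 1 to 3, against 83.6, 92.1 and 86.0 CPM in controls 1 to 3 (log2 fold change 0.31, SE 0.12, edgeR adjusted p = 0.0911). Its close relative RALB was at 42.8, 43.1 and 44.4 CPM with CTI-2, against 29.3, 36.9 and 34.0 CPM in controls (log2 fold change 0.41, SE 0.15, edgeR adjusted p = 0.0836). RALB has 1 annotated pseudogene, which is in the count table, and a split of reads between them was not tested. ABHD17A, which encodes an enzyme that removes palmitate from NRAS, was at 0.317, 2.70 and 2.72 CPM with CTI-2, against 20.4, 6.36 and 6.81 CPM in controls (log2 fold change -2.51, SE 0.71, adjusted p = 0.0747). It had as few as 1 and as many as 53 reads in a library, and 8 pseudogenes of it are annotated, none of them in the count table.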
